A study of Mus musculus with 12 samples.

Results

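The genes described here are 8 cell cycle inhibitors of the Ink4, Kip and Rb families: Cdkn2a, Cdkn2b, Cdkn2c, Cdkn2d, Cdkn1b, Rb1, Rbl1 and Rbl2. Every probe whose RefSeq accession belongs to one of them was taken, which gave 11 of the 41174 probes of a single-colour mouse array and 8 of its 17305 named genes. Cdkn1b, Rb1 and Rbl2 had a pair of probes each, and the other genes had 1. The arrays compared mouse embryonic fibroblasts, connective tissue cells grown in culture, that lack or carry Atm, which encodes a protein kinase activated by DNA breaks. The 4 groups of 3 arrays were irradiated Atm-KO, nonirradiated Atm-KO, irradiated Atm-WT and nonirradiated Atm-WT cells. Irradiated cells received 4.32 Gy, and RNA was taken 72 h later. The mouse strain, the passage number and the way Atm was deleted are not given in the sources used here.

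Ink4 proteins bind Cdk4 and Cdk6 and keep them from pairing with D-type cyclins, while Kip proteins such as p27 bind complexes of cyclin E or cyclin A with Cdk2. Active kinases phosphorylate the Rb family, and Rb proteins that are not phosphorylated hold E2F transcription factors and the genes of DNA replication and mitosis in check. In cultured mouse embryonic fibroblasts the Ink4a/Arf locus is known for its gradual rise with passage. Cdkn1a, a p53 target that encodes p21, is the best known inhibitor induced by irradiation.

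The sequences before the transcription starts are shown for 5 genes. Cdkn2c and Cdkn1b are shown for their level on irradiated arrays, Cdkn2b and the upstream start of Cdkn2a as neighbours on chromosome 4, and Rbl1 because it is itself a known E2F target. They come from RefSeq on GRCm38.p6, which held windows for 7 of the 8 genes, 9 windows in all. Each line gives the 250 bases before the start, 5′ to 3′ on the gene's strand. Capitals mark E2F motifs (TTTCCCGC, TTTGGCGC, TTTCGCGC or TTTGCCGC), GC boxes (GGGCGG) and CCAAT, found on either strand.
Cdkn2c, chr4:109666757-109667006, minus strand: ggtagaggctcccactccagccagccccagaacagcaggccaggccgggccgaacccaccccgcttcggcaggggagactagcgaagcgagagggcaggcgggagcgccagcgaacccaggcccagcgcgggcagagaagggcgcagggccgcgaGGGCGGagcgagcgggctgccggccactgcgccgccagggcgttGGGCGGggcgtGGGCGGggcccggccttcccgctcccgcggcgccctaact
Cdkn1b, chr6:134920151-134920400, plus strand: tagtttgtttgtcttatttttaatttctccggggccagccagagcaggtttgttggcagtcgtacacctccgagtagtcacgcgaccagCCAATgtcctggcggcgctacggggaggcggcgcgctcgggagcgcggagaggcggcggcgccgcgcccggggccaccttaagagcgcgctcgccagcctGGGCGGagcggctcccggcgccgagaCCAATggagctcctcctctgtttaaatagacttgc
Cdkn2b, chr4:89311033-89311282, minus strand: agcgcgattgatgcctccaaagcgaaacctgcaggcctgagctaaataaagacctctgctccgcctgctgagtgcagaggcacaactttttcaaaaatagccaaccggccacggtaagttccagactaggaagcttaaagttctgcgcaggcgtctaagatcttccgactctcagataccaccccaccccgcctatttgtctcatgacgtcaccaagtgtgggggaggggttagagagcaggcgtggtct
Cdkn2a, chr4:89294620-89294869, minus strand: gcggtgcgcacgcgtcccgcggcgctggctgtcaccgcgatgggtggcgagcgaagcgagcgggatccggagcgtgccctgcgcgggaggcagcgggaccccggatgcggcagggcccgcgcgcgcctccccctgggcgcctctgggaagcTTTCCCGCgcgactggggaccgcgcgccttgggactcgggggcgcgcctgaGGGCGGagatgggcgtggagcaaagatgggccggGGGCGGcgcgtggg
Rbl1, chr2:157204535-157204784, minus strand: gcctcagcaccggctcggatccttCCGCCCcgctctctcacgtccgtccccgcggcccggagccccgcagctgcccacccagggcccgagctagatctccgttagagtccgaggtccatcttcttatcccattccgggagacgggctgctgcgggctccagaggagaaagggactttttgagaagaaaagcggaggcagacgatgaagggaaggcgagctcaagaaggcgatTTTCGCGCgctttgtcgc
The motifs were counted in windows of 300 bases, 250 before and 50 after the start. The only overlap of different motifs was that of a GC box and CCAAT after the downstream start of Cdkn2a. An E2F motif lay in 2 of the 9 windows, at -99 from the start in that of Cdkn2a and at -18 in that of Rbl1, and 2.26% of all 32851 windows held one. A GC box was found in 35.7% of all windows and CCAAT in 37.4%. The upstream Cdkn2c window, the one printed, held 4 GC boxes, at -95, -51, -40 and 36. The downstream Cdkn2c window held CCAAT at 7 and no GC box. The Cdkn1b window held CCAAT at -161, -35 and 45 with 1 GC box at -61. The Cdkn2b window held 1 GC box, at 4, past the printed bases. CHR elements (TTTGAA or TTCGAA), not capitalised, were in 19.2% of all windows. They lay at -161 in the window of Cdkn2b and at -201 in that of Rbl2, which is not printed. These matches describe the letters only.

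Levels below are log2 processed signal minus each array's 75th percentile of signal, so that 0 is the array's upper quartile, and they are not compared between probes. All 8 genes were well above background on all 12 arrays on their brighter or only probe, which was the one tested. The 75th percentile was between 379 and 757 on the 12 arrays, and the share of probes well above background was between 55.3% and 64.5%. The Atm level was -7.50 to -5.43 on the Atm-KO arrays and -5.65 to -2.87 on the Atm-WT arrays, so that the ranges overlapped. The overlapping values were those of nonirradiated Atm-KO sample 1 and nonirradiated Atm-WT sample 2, neither well above background. Of the Atm-KO arrays only irradiated sample 1 was well above background for Atm, and of the Atm-WT arrays all but nonirradiated sample 2 were. All 12 fibroblast markers examined were well above background in every group. The 4 arrays of sample 1 stood apart in markers of other cells. The 6 skeletal muscle markers summed to 1.0 to 2.86 times the 75th percentile on them, against 0.146 to 0.283 on the 8 arrays of samples 2 and 3, and 5 of 6 against 1 of 6 were well above background throughout. Ckm, the muscle creatine kinase, was so on no array. The 4 measured neural markers summed to 4.78 to 11.8 on sample 1 arrays, against 2.18 to 4.48, and the 8 epithelial markers to 2.4 to 5.11, against 1.08 to 1.67. Their part in the results was not tested, and results that change without sample 1 are given both ways. On each 4-array slide the irradiated samples took positions 2 and 4 and the nonirradiated ones 1 and 3, and an effect of position cannot be told apart from one of irradiation. The labels name no separate cultures or embryos, and p-values therefore reflect only how far these samples spread, which may be technical.

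**Figure D1:**
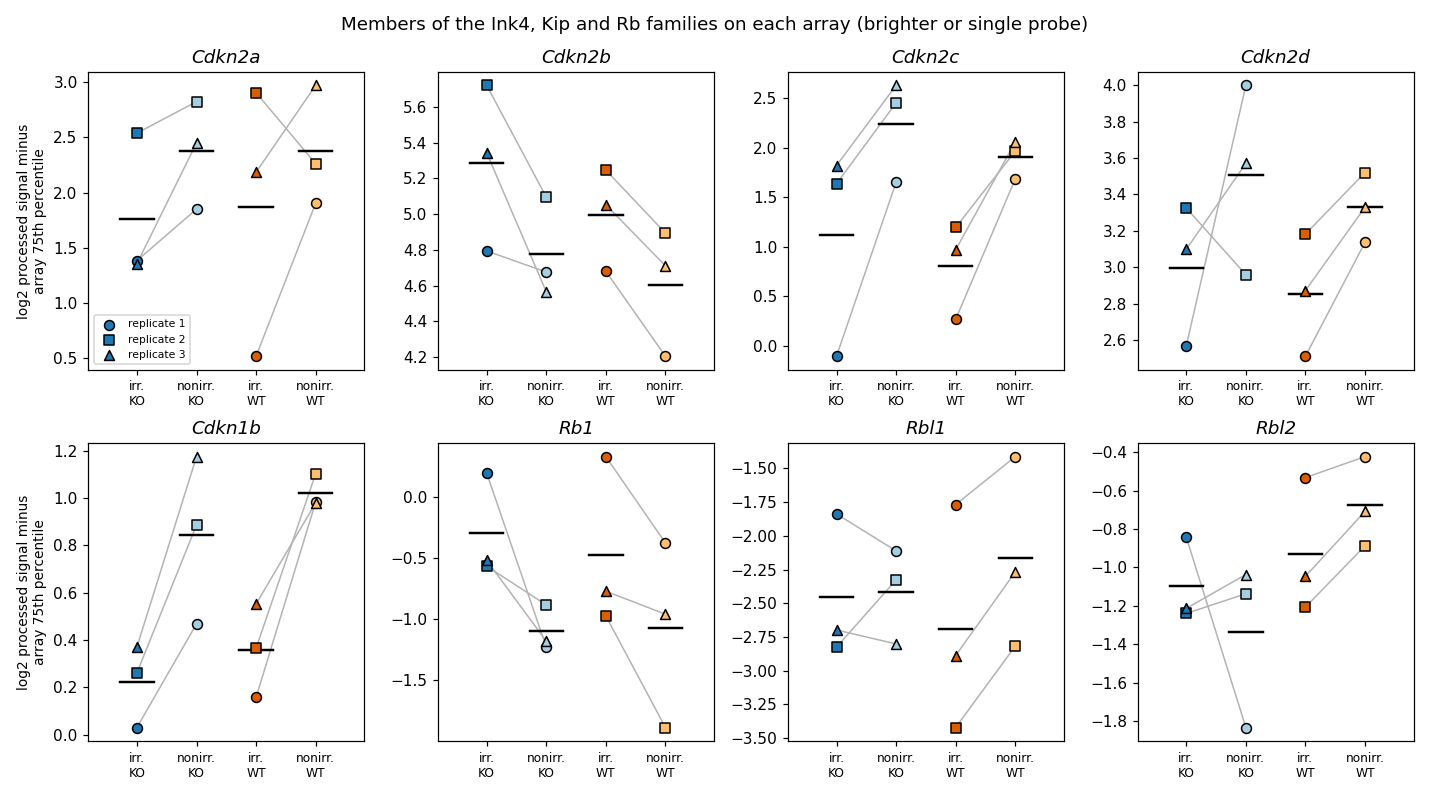
Level of each of the 8 genes on every array, as log2 processed signal minus the array's 75th percentile, by group (irr. for irradiated, nonirr. for nonirradiated). Each point is 1 array, bars are group means, grey lines join same-numbered samples, and Cdkn2c and Cdkn1b are lower on the irradiated array in all 6 pairs.

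Across both genotypes, 4 of the 8 genes lay on one side in all 6 same-numbered pairs of irradiated and nonirradiated samples. Cdkn2c and Cdkn1b were lower on the irradiated array in every pair, and Cdkn2b and Rb1 were higher. Of all 18430 features tested, 22.1% lay on one side in all 6 pairs, 14.3% lower and 7.83% higher. With the same-numbered samples kept as pairs and the irradiation effect averaged over genotypes, limma called Cdkn2c and Cdkn1b lower and Rb1 higher, at a Benjamini-Hochberg adjusted p under 0.05. These are 3 of 8 genes where 10.3% of all features were called, 5.45% lower and 4.8% higher. At an unadjusted p under 0.05 they were 6 of 8, against 27.7% of all features. The averaged effect was chosen after the data were seen. The fit without pairs was the main setting. In it 0 of 8 were called for the averaged effect, against 1.81% of all features. There 4 of 8 had an unadjusted p under 0.05, against 13.6%. Paired samples also lay at neighbouring positions of the same slide, so that pairing and place on the slide cannot be told apart.

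Cdkn2c encodes p18Ink4c, an inhibitor of Cdk4 and Cdk6. Its level was -0.11, 1.64 and 1.82 in irradiated Atm-KO samples 1 to 3, against 1.65, 2.45 and 2.63 in nonirradiated Atm-KO samples. It was 0.26, 1.19 and 0.97 in irradiated Atm-WT samples, against 1.68, 1.96 and 2.06 in nonirradiated Atm-WT samples. The Atm-WT groups did not overlap, whereas in Atm-KO cells irradiated sample 3 lay above the lowest nonirradiated sample. Sample 1 was the lowest of each group. Within pairs the difference was -1.76, -0.82 and -0.81 in Atm-KO cells and -1.42, -0.77 and -1.09 in Atm-WT cells. Averaged over genotypes it was -1.11 ± 0.168 (SE, 95% interval -1.49 to -0.73), 2.16-fold lower in irradiated cells, with limma's adjusted p = 0.00521 in the fit with pairs and 0.131 without them. Within single genotypes limma's adjusted p with pairs was 0.0503 in Atm-KO cells and 0.0545 in Atm-WT cells, and neither passed the threshold. With sample 1 of every group left out, the averaged difference was -0.87 with limma's adjusted p = 0.0353 with pairs.

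Cdkn1b encodes p27Kip1, the Kip inhibitor that accumulates in quiescent fibroblasts. On its brighter probe the level was 0.03, 0.26 and 0.37 in irradiated Atm-KO samples, against 0.47, 0.89 and 1.17 in nonirradiated Atm-KO samples. It was 0.16, 0.37 and 0.55 in irradiated Atm-WT samples, against 0.98, 1.1 and 0.98 in nonirradiated Atm-WT samples. In neither genotype did the irradiated values overlap the nonirradiated ones. The averaged difference was -0.64 ± 0.127 (SE, 95% interval -0.93 to -0.35), 1.56-fold lower in irradiated cells, with limma's adjusted p = 0.0165 with pairs and 0.0860 without them. In pairs it ran from -0.82 to -0.43. The dimmer probe, with 10 spots per array, was also lower on the irradiated array in all 6 pairs, by -0.76 to -0.09. Its averaged difference was -0.44 ± 0.136 with limma's adjusted p = 0.0750 over all probes in the fit with pairs. With sample 1 of every group left out, the brighter probe gave -0.65 with limma's adjusted p = 0.0521 with pairs.

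Cdkn2b encodes p15Ink4b, an Ink4 inhibitor known as a target of TGF-beta signalling. Its level was 4.79, 5.72 and 5.34 in irradiated Atm-KO samples, against 4.68, 5.10 and 4.56 in nonirradiated Atm-KO samples. It was 4.68, 5.25 and 5.05 in irradiated Atm-WT samples, against 4.20, 4.89 and 4.71 in nonirradiated Atm-WT samples. The ranges overlapped in both genotypes, although each irradiated sample lay above the nonirradiated sample of its number, by 0.12 to 0.78. The averaged difference of 0.45 ± 0.134 did not pass the threshold, with limma's adjusted p = 0.0656 with pairs.

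Cdkn2a encodes both p16Ink4a and Arf from different first exons, and its probe could not be assigned to either here. Its level was 1.38, 2.54 and 1.36 in irradiated Atm-KO samples, against 1.85, 2.82 and 2.45 in nonirradiated Atm-KO samples. It was 0.52, 2.91 and 2.19 in irradiated Atm-WT samples, against 1.90, 2.26 and 2.97 in nonirradiated Atm-WT samples. Irradiated Atm-WT cells held both the lowest value of all 12 and the second highest. Log2 values of the probe's 10 spots on an array had an SD of 0.024 to 0.054, far below the spread between arrays. The averaged difference was -0.56 ± 0.245 with limma's adjusted p = 0.175 with pairs. In Atm-WT pair 2 it was 0.64, and in the other 5 pairs -1.39 to -0.29. In Atm-KO cells all 3 pairs were below 0 for Cdkn2a and above 0 for its neighbour Cdkn2b.

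Cdkn2d encodes p19Ink4d, the Ink4 member that oscillates in cycling cells. Its level was 2.57, 3.33 and 3.10 in irradiated Atm-KO samples, against 4.0, 2.96 and 3.57 in nonirradiated Atm-KO samples. It was 2.51, 3.18 and 2.87 in irradiated Atm-WT samples, against 3.14, 3.52 and 3.33 in nonirradiated Atm-WT samples. The irradiated sample was lower in 5 of 6 pairs, the exception being Atm-KO pair 2 at 0.37. The averaged difference was -0.49 ± 0.209 with limma's adjusted p = 0.166 with pairs.

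Rb1 encodes the retinoblastoma protein. Its level was 0.19, -0.57 and -0.52 in irradiated Atm-KO samples, against -1.23, -0.88 and -1.18 in nonirradiated Atm-KO samples. It was 0.33, -0.97 and -0.77 in irradiated Atm-WT samples, against -0.38, -1.88 and -0.96 in nonirradiated Atm-WT samples. The Atm-KO groups did not overlap and the Atm-WT groups did. The averaged difference was 0.70 ± 0.174 (SE, 95% interval 0.31 to 1.09), 1.62-fold higher in irradiated cells, with limma's adjusted p = 0.0373 with pairs and 0.320 without them. The call was lost with sample 1 of every group left out, where the difference was 0.52 with limma's adjusted p = 0.138 with pairs. The dimmer Rb1 probe was well above background on only 1 of 12 arrays, an irradiated Atm-WT one, and gives no second reading.

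The Rb1 level correlated with the 75th percentile of signal on the array. Over the 12 arrays its Pearson correlation with the log2 75th percentile was 0.931 and Spearman's rho was 0.874, with permutation p = 2e-05 and 0.00038 from 100000 resamples, two-sided. Over the 8 genes the permutation p adjusted by Benjamini-Hochberg was 0.00016 for r and 0.00304 for rho. These permutations treat the 12 arrays as exchangeable, although same-numbered samples of a genotype mostly resemble each other and the percentile moves with irradiation. With the percentile permuted only among the 4 arrays of a sample number, r of the deviations from each number's mean was 0.906 for Rb1, with an exact two-sided p = 0.00297, adjusted 0.0237. That test still does not separate the percentile from irradiation. It also puts both genotypes in 1 block, although between genotypes without irradiation same-numbered samples correlated at only -0.217 to 0.179. The correlation was 0.826 without the 2 arrays farthest from the median percentile, 0.985 within the 6 irradiated arrays and 0.889 within the 6 nonirradiated ones. The highest percentiles, 757.1, 708.4 and 608.4, were all on sample 1 arrays. The remaining sample 1 array, nonirradiated Atm-KO, was at 430.1 with an Rb1 level of -1.23. The percentile was higher on the irradiated array in 5 of 6 pairs, by up to 0.72 on the log2 scale. A correlation with the percentile was not confined to Rb1. The percentile is itself subtracted from each level, so that a gene whose signal does not follow it gets a negative r. Negative values below cannot be told apart from that coupling. For 4 of the other 7 genes the permutation p of Pearson's r also passed after adjustment, with r = -0.73 and p = 0.0299 for Cdkn2a, r = -0.69 and p = 0.0328 for Cdkn2d, and p = 0.0359 each for Cdkn2c at r = -0.65 and Rbl1 at r = 0.66. None of the 7 passed for rho or within sample numbers. Without the 2 arrays farthest from the median, both irradiated samples 1, r of the 7 was -0.31 to 0.49. It was -0.31 for Cdkn2a, -0.28 for Cdkn2d, 0.07 for Cdkn2c and 0.49 for Rbl1. Within the 6 irradiated arrays r was 0.949 for Rbl1, -0.887 for Cdkn1b, 0.836 for Rbl2, -0.821 for Cdkn2a, -0.772 for Cdkn2d, -0.730 for Cdkn2c and -0.646 for Cdkn2b. Within the 6 nonirradiated arrays r was -0.760 for Cdkn2b, 0.733 for Rbl1, 0.471 for Rbl2 and -0.426 for Cdkn2d. It was -0.27 for Cdkn2a, 0.129 for Cdkn1b and -0.0735 for Cdkn2c. With the log2 75th percentile as a covariate beside the pairs, a fit chosen after the data were seen, limma's averaged difference for Rb1 was 0.33 with adjusted p = 0.258. In that fit Cdkn2c was at -0.79 with limma's adjusted p = 0.0447 and Cdkn1b at -0.68 with adjusted p = 0.0489.

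**Figure D2:**
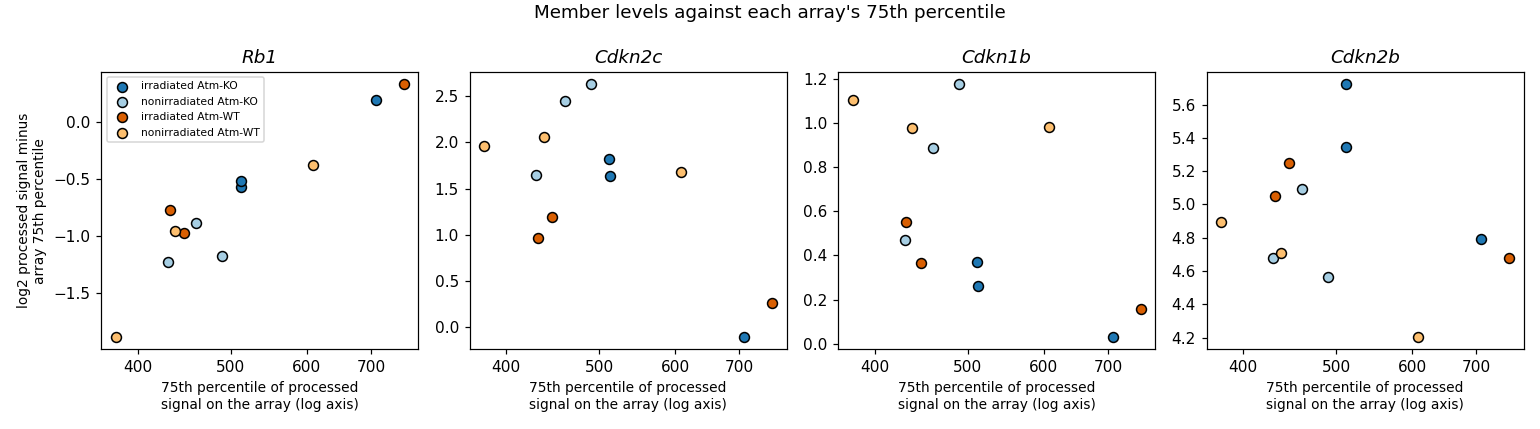
Level of Rb1, Cdkn2c, Cdkn1b and Cdkn2b, as log2 processed signal minus the array's 75th percentile, against that percentile on a log axis, with 1 point for each of the 12 arrays coloured by group. Rb1 shows the closest relation, with r = 0.931.

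Rbl1 encodes p107, a pocket protein whose own gene is controlled by E2F. Its level was -1.84, -2.83 and -2.70 in irradiated Atm-KO samples, against -2.11, -2.33 and -2.80 in nonirradiated Atm-KO samples. It was -1.77, -3.42 and -2.89 in irradiated Atm-WT samples, against -1.41, -2.82 and -2.27 in nonirradiated Atm-WT samples. The irradiated sample was lower in 1 of 3 Atm-KO pairs and in all 3 Atm-WT pairs, where limma's adjusted p was 0.248 with pairs. The averaged difference was -0.28 ± 0.142 with limma's adjusted p = 0.235 with pairs.

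Rbl2 encodes p130, the pocket protein that occupies E2F targets in resting cells. Its level was -0.84, -1.24 and -1.21 in irradiated Atm-KO samples, against -1.83, -1.14 and -1.04 in nonirradiated Atm-KO samples. It was -0.53, -1.21 and -1.05 in irradiated Atm-WT samples, against -0.42, -0.89 and -0.71 in nonirradiated Atm-WT samples. Nonirradiated Atm-KO sample 1 was the lowest of all 12. The averaged difference was -0.01 ± 0.172, the nearest to 0 of the 8, with limma's 95% interval of -0.40 to 0.38 in the fit with pairs.

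Within single genotypes, limma called 0 of 8 genes in either fit. In Atm-KO cells 0.00543% of all features were called without pairs and 2.05% with them, and 2 and 4 of the 8 had an unadjusted p under 0.05, against 7.93% and 20.6% of all features. In Atm-WT cells 0.445% were called without pairs and 2.26% with them, and again 2 and 4 of the 8 had an unadjusted p under 0.05, against 6.46% and 15.4%. Irradiated and nonirradiated groups did not overlap for 2 of 8 genes in each genotype, Cdkn1b and Rb1 in Atm-KO cells and Cdkn2c and Cdkn1b in Atm-WT cells, where 17.1% and 10.2% of all features were so separated. The median difference of the 8 was -0.28 in Atm-KO cells and -0.49 in Atm-WT cells, where the median over all features was -0.05 and -0.02.

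**Figure D3:**
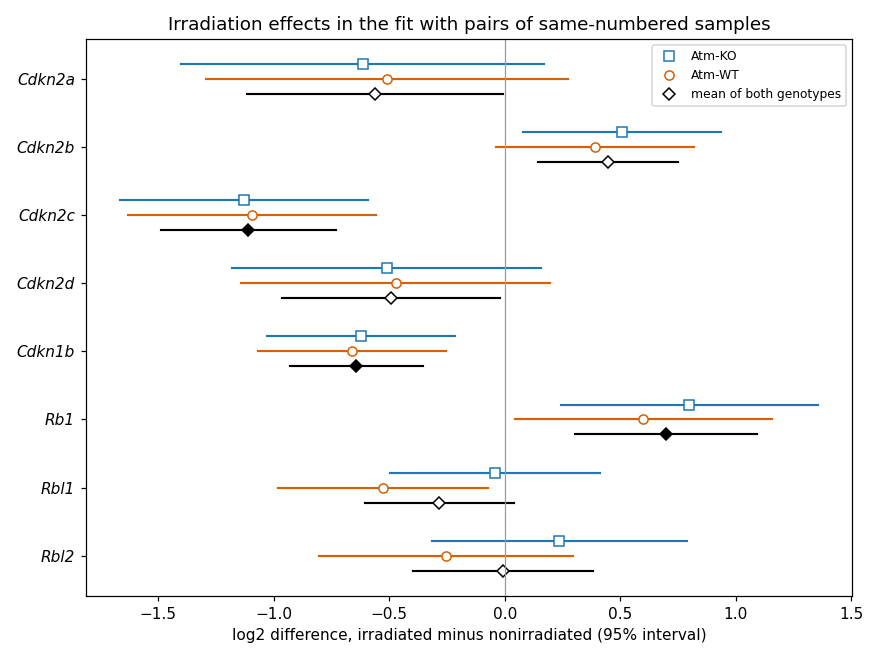
Irradiated minus nonirradiated log2 level of each gene in Atm-KO cells, in Atm-WT cells and averaged, with limma's 95% intervals from the fit with pairs. Filled symbols passed the threshold after adjustment: Cdkn2c, Cdkn1b and Rb1, each for the averaged effect.

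No gene's irradiation effect was called different between genotypes. The difference of effects, Atm-KO minus Atm-WT, was called for 0 of 8 genes by limma in either fit, against 0.00543% of all features without pairs and 0.0217% with them. None of the 8 had an unadjusted p under 0.05, against 0.901% and 3.3% of all features. With pairs the difference was -0.03 ± 0.336 for Cdkn2c with a 95% interval of -0.79 to 0.72, and 0.04 ± 0.255 for Cdkn1b with an interval of -0.53 to 0.62.

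Genotype called 0 of 8 genes in either fit. Without irradiation limma called 0.857% of all features without the replicate block and 1.71% with it, and 1 of 8 had an unadjusted p under 0.05, against 7.52% of all features. After irradiation these shares were 0.206% and 0.76%, and 0 of 8 had an unadjusted p under 0.05, against 5.23%. Rbl2 was the 1 of 8 whose groups did not overlap without irradiation, as for 13.7% of all features, and after irradiation 0 of 8 were separated, against 6.85%. Its difference in the fit without the block, nonirradiated Atm-KO minus nonirradiated Atm-WT, was -0.66 ± 0.286 with limma's adjusted p = 0.610. Its dimmer probe gave -0.88 ± 0.315 with limma's adjusted p = 0.442 over all probes. After irradiation the Rbl2 difference was -0.17, with an SE of 0.286 without the block and 0.269 with it. Cdkn2b had the smallest unadjusted p of the 8 by limma, 0.352 without the block and 0.13 with it. Its difference was 0.29, with an SE of 0.303 without the block and 0.177 with it.

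The Kip family gene Cdkn1c, which encodes p57 and is imprinted, was called lower in Atm-KO cells. Its level was 4.68, 4.25 and 4.65 in irradiated Atm-KO samples, against 6.12, 6.87 and 6.90 in irradiated Atm-WT samples. It was 6.02, 4.86 and 5.75 in nonirradiated Atm-KO samples, against 6.94, 7.35 and 7.50 in nonirradiated Atm-WT samples. In the fit without the block the difference was -2.11 ± 0.337 after irradiation and -1.72 ± 0.337 without it, with limma's adjusted p = 0.0260 and 0.0361, and both calls were also made with the replicate block. Slide 1 held only Atm-WT arrays and slide 3 only Atm-KO ones. With the slide as a block the differences were -2.05 ± 0.433 and -1.66 ± 0.433, and neither passed, with limma's adjusted p = 0.273 and 0.320. Within slide 2, which held 1 array of each group, they were -2.23 and -1.47. Macrophage and blood markers also differed by genotype. The 10 measured markers summed to 0.403 to 0.636 times the 75th percentile in irradiated Atm-KO samples, against 2.44 to 3.77 in irradiated Atm-WT samples. They summed to 0.295 to 0.716 in nonirradiated Atm-KO samples, against 3.5 to 6.55 in nonirradiated Atm-WT samples. All arrays of a group were well above background for 4 of the 10 in each Atm-KO group and for 9 of the 10 in each Atm-WT group, and their part in the genotype values was not tested. In bulk samples, fewer cells of a type and less RNA per cell cannot be told apart.

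Around these inhibitors, 18 of 25 E2F target genes were called lower after irradiation. The pathway lists were chosen with earlier results of these data known, and counts in them are for the averaged effect with pairs unless said otherwise. All 25 E2F target genes were below 0 with a median of -0.77, beside -0.03 over all features, and the 18 calls compare with 5.45% of all features called lower. Without pairs 9 of 25 were called, against 0.787% of all features. With pairs and without sample 1 of every group 15 of 25 were called, against 1.97%. Ccnb1, the mitotic cyclin B1, was lower by -1.17 ± 0.130, and Tk1, a nucleotide salvage enzyme, by -1.34 ± 0.206, with limma's adjusted p = 0.00124 and 0.00558. Within genotypes with pairs, 9 of the 25 were called lower in Atm-KO cells, against 0.863% of all features, and 5 in Atm-WT cells, against 0.624%. The difference between genotypes was called for none of them.

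The counts in the smaller lists stand beside 10.3% of all features called in either direction. Among the E2F and DP factors 2 of 10 were called lower, and both are atypical repressors that E2F itself induces. E2f7 was at -1.18, -1.08 and -1.35 in irradiated Atm-KO samples, against -0.07, -0.06 and -0.47 in nonirradiated ones. It was at -1.49, -1.28 and -1.51 in irradiated Atm-WT samples, against -0.27, -0.39 and -0.86 in nonirradiated ones. No irradiated E2f7 value reached a nonirradiated one, and the averaged difference was -0.96 ± 0.130. E2f8 differed by -0.89 ± 0.158. In the list of 7 DREAM and MuvB genes, Mybl2 and Foxm1 were called lower, by -0.97 and -0.76. They encode transcription factors that drive S phase and mitotic genes, and the MuvB core genes of the list were not called. Ccna2, the cyclin of Cdk2 in S phase, was lower by -1.14 ± 0.137, the only call in its list of 5. None of the 4 measured genes of the cyclin D and Cdk4/6 list was called, and Cdk4 was nearest at -0.48 with limma's adjusted p = 0.101.

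Of the other Cip and Kip inhibitors, Cdkn1a was called higher and Cdkn1c lower. Cdkn1a was at 4.88, 5.86 and 5.48 in irradiated Atm-KO samples, against 4.70, 5.15 and 4.59 in nonirradiated ones. It was at 4.95, 5.70 and 5.42 in irradiated Atm-WT samples, against 4.06, 4.66 and 4.40 in nonirradiated ones. The groups overlapped in Atm-KO cells and did not in Atm-WT cells. Its averaged difference was 0.79 ± 0.137 with limma's adjusted p = 0.00935, and Cdkn1c differed by -0.83 ± 0.140 with limma's adjusted p = 0.00850. The p53 inhibitor Mdm2, itself a p53 target, was higher by 1.1 ± 0.182, the only call among 4 genes of the Arf and p53 axis. Among 13 Polycomb regulators of the Ink4 locus Cbx2 and Ezh2 were called lower, by -0.63 and -0.50. Id2 was the only call among 15 factors linked to the Ink4 locus and Cdkn1b, at -0.74, a share below that of all features. Cks1b, a cofactor of p27 degradation, was the only call among 4 measured Kip turnover genes, at -0.70. Of these list genes Cdkn1c, Mdm2, Foxm1, Cbx2 and Cks1b were not called with sample 1 of every group left out, where limma's adjusted p with pairs was 0.0518 to 0.0919.

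**Figure D4:**
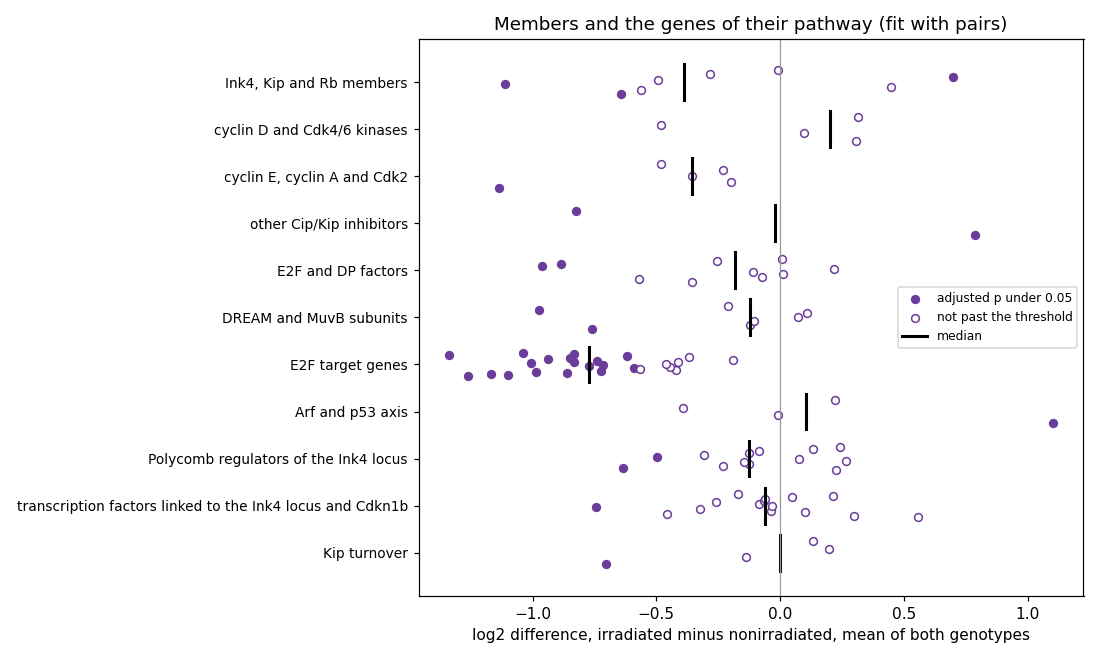
Averaged irradiated minus nonirradiated log2 difference of the 8 genes and of each gene of the 10 lists, from the fit with pairs. Filled symbols passed the threshold and open symbols did not, black bars are list medians, and all 25 E2F target genes lie below 0.

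The genes most alike to each of the 8 were found by Pearson correlation over the 12 arrays among 12805 named genes. The arrays share irradiation, genotype and signal, so these values are a description. Cdkn2c was closest to Dzank1, Angptl6 and Gng13, at 0.97, 0.97 and 0.96, and farthest from the chemokine gene Ccl11, at -0.96. Cdkn1b was closest to Tub, Krt15 and Gjc1, at 0.96, 0.94 and 0.92. Rbl1 was closest to the kinesin genes Kif23 and Kif4 and to Gas2l3, at 0.97 each. Rb1 was closest to Trp53inp1, Kif5b and Mpp5, at 0.98 each. Cdkn2b was closest to Srxn1, Ak1 and Capg, at 0.96, 0.95 and 0.95. Cdkn2a, Cdkn2d and Rbl2 had highest values of 0.92, 0.95 and 0.95, with Retreg3, Rcc1 and Ehbp1. Among pairs of the 8 genes themselves, Cdkn2c with Cdkn1b had the highest correlation, 0.80, and Cdkn2d with Rb1 the lowest, -0.79, while the neighbours Cdkn2a and Cdkn2b stood at 0.25.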

How the data were processed

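RNA of 12 samples was hybridised to single-colour Agilent arrays (design 014868). Per the file headers, the deposited spot intensity was extracted with Feature Extraction 10.7.1.1 and background-corrected within each array. Version 11.0 stands in the submitters' processing notes, and the 2 were not reconciled. The authors also deposited log2 values, which matched the scanner values after subtraction of the array's upper quartile and of each probe's median (lowest r 0.99752, column medians -0.427 to 0.27). They served as an alternative, and their direction is that of the scanner files.

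Spots flagged as outliers were left out, and spots of a probe were averaged. Probes were named from RefSeq accessions, 25097 of 41174. Of a gene's probes, the brighter stands for the gene. The files' build is mm9, so promoter coordinates are those of the RefSeq table. Features well above background on all 3 arrays of a group, 18430, were tested with limma 3.58.1 in R 4.3.3, with Benjamini-Hochberg adjustment at 0.05. The main setting was a group-means model with 8 residual and 4.13 prior degrees of freedom. The irradiation fit with pairs had 4 residual and 5.03 prior degrees of freedom.

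Replicate numbers come from the labels. Deviations of same-numbered samples from group means correlated at 0.269 to 0.510 for irradiation in Atm-KO cells, 0.481 to 0.852 in Atm-WT cells, 0.218 to 0.629 between genotypes after irradiation and -0.217 to 0.179 without it. The highest correlation with another number was larger for Atm-KO sample 2, at 0.284 against 0.269. It was also larger between genotypes for number 3 after irradiation, at 0.387 against 0.218, and for numbers 1 and 3 without it. The irradiation comparisons were treated as pairs, and the replicate block was also fitted to both genotype comparisons. Genotype differences are printed from the fit without the block, and those of irradiation from the fit with pairs, unless said otherwise. The normexp alternative used median spot and background intensity in place of the planned mean spot intensity. The script was tested on simulated data without pairs, for irradiation in each genotype and for genotype after irradiation. The averaged effect and the difference of effects were not tested in that way. The genes and lists, and the averaged effect, were chosen with earlier results of these data known. The text names the 8 genes, Atm, list genes called in a comparison or, where none was, some of those with the smallest p, and the genes most alike. Some called list genes and some of the others were left out for length. The number of arrays limits the precision.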

Additional observations from a re-analysis of the deposited data

How the results depend on the processing

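For the averaged irradiation effect, 0 of 8 genes were called in the main setting. With the slide as a fixed block 2 were called (Cdkn2c and Cdkn1b), with the replicate block 3, with the replicate block and replicate 1 of every group left out 1 (Cdkn2c), with replicate 1 left out and no block 2, and with the replicate block and the log2 75th percentile as a covariate 2. The averaged effect and the last 2 settings were chosen after seeing the data. In every other comparison 0 were called under every setting run, and the replicate block changed no other call.

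Over the 6 comparisons, 25 of the 48 differences of single genes changed sign in at least 1 setting, and none was called where it did. These were 6 of 8 for the difference of effects, 7 of 8 between genotypes both with and without irradiation, 3 of 8 for irradiation in Atm-KO cells and 1 of 8 each in Atm-WT cells and averaged. For the difference of effects Cdkn2c reached 0.58 and Rb1 -0.43, and Rb1 reached 0.62 between genotypes without irradiation. For the difference of effects and for both genotype comparisons, the signs are thus not settled for most of the genes. Among those in the text, in Atm-KO cells irradiation gave -0.14 for Rbl2 with replicate 1 left out, with and without the block, and with the covariate -0.26 for Rbl2 and 0.023 for Cdkn2d. The averaged Rbl2 difference was 0.029 with the mean of its probes. With the slide as a block, Cdkn2c was at -0.72 between genotypes without irradiation, and after it Cdkn2c was at -0.76 and Cdkn2b at -0.088. Leaving out 1 array at a time gave -0.35 to 0.15 for Rbl1 and -0.011 to 0.39 for Rbl2 in Atm-KO cells, -1.03 to 0.17 for Cdkn2a in Atm-WT cells, -0.78 to 0.41 for the difference of effects of Cdkn2a, -0.13 to 0.066 for the averaged effect of Rbl2, and -0.044 to 0.92 for Cdkn2c and -0.31 to 0.028 for Rbl2 between genotypes after irradiation. The cause was not tested. Within slide 2, the only one with both genotypes, the averaged difference was -1.42 for Cdkn2c, -0.43 for Cdkn1b, 0.80 for Rb1 and 0.23 for Cdkn2b.

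Over all features, limma's calls for the averaged effect numbered 334 in the main setting and 99 to 1890 over the alternatives. They were 1 and 0 to 377 for irradiation in Atm-KO cells, 82 and 44 to 772 in Atm-WT cells, 1 and 0 to 9 for the difference of effects, 38 and 3 to 1234 between genotypes after irradiation, and 158 and 34 to 1856 without it. The 3 arrays a group limit what can be detected, and a difference of the size seen for Cdkn2b passed in neither fit.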
